A study of Mus musculus with 4 samples.

Results

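T cells without a UMI of the delta chain gene were examined in single-cell libraries of regenerating mouse digit tips. A UMI is 1 counted mRNA molecule. Cells were chosen by their own counts. Barcodes with 200 to 5500 genes, at most 30000 UMIs and at most 10% mitochondrial UMIs were kept. Among these, a cell was taken when it held at least 1 UMI over Cd3d, Cd3e and Cd3g, which encode chains of the CD3 signaling complex, 0 UMIs of Trdc, the constant region of the delta chain, and at least 1 UMI over Trac, Trbc1 and Trbc2, the constant regions of the alpha and beta chains. This selection gave 270 cells of 93602 kept cells, and of 736 kept cells with a CD3 UMI. The 292 cells with a CD3 UMI and a Trdc UMI are called gamma delta T cells here and served as the comparison, and the remaining 174 cells with a CD3 UMI held no UMI of either kind of chain.

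The digits came from female C57BL/6 mice of 6 to 8 weeks after amputation of the distal phalanx (P3), and each library held the digits of 10 mice. In the first experiment, mice received control diet or chow with SAR131675 at 30 mg/kg, for 8 days by the labels. SAR131675 inhibits the lymphatic growth factor receptor VEGFR3. The paper states that the SAR131675 chow began before amputation and was kept up throughout. Its text puts the diet single-cell data at 8 days after amputation, and a caption gives another day. In the second experiment, lymph nodes were removed (LNR) and, as the paper reports, the limb on the other side of the body served as sham. The label of the sham library says no treatment. Each of the 4 conditions was 1 library and 1 batch, so batch and condition cannot be told apart and no test between conditions was possible. By the paper's account, the limb drained by removed nodes and the sham limb are not independent animals. The diet libraries were counted with another software version than the surgical ones and held more UMIs per cell, so that levels were compared only within an experiment.

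A mature T cell carries either an alpha beta or a gamma delta receptor, and both need the CD3 chains to signal. Mouse epidermis is known for a dense network of resident gamma delta T cells. Alpha beta T cells of skin include CD8 T cells, which kill infected cells and release interferon, CD4 helper cells, which act through cytokines and CD40 ligand, and regulatory T cells, which carry the transcription factor FOXP3 and restrain other immune cells. T cells can also carry RANKL, encoded by Tnfsf11, the cytokine that drives the formation of bone-resorbing osteoclasts, and bone resorption is an early step of digit tip regeneration. The study asked whether lymphatic vessels affect digit regeneration through immune cells and osteoclasts.

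The cells numbered 85 in LNR, 59 in sham, 76 in SAR131675 and 50 in control diet. Their median depth was 2788 UMIs in LNR, 2989 in sham, 6236 in SAR131675 and 5779 in control diet, against 2540, 2424, 6116 and 6047 UMIs in gamma delta T cells of the same libraries. The deposited libraries held 168507188 to 585284877 UMIs over 21669 to 38464 barcodes. No barcode of these cells was shared between libraries, whereas 101 kept barcodes were shared by LNR and sham and 210 by SAR131675 and control diet. Ptprc, which encodes the leukocyte antigen CD45, was detected in 215 of the 270 cells (79.6%), against 253 of 292 gamma delta T cells (86.6%) and 39 of the 174 CD3 cells without either chain (22.4%).

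The genes of the rule are given as a description. Cd3g was detected in 209 cells, Cd3e in 176 and Cd3d in 150. Trbc2 was detected in 219 cells (81.1%), Trac in 132 (48.9%) and Trbc1 in 123 (45.6%). Just inside the limits, 56 cells had exactly 1 CD3 UMI, 53 had exactly 1 UMI of the alpha and beta constant regions, and 27 met both. Just outside, 42 of the 292 gamma delta T cells had exactly 1 Trdc UMI. A total of 75 cells entered through Trbc2 alone, 31 of them with 1 CD3 UMI. Trbc2 also had a UMI in 14.8% to 19.6% of keratinocytes, the epidermal cells defined here by at least 20 keratin UMIs and no Ptprc UMI, which were deeper (median 8883 to 13126 UMIs). After thinning every cell to 1500 UMIs, which leaves out shallower cells, 3.00% to 3.38% of keratinocytes still had a Trbc2 UMI. Trac had one in 0.291% to 0.369% of keratinocytes and Trdc in 0.0596% to 0.174%.

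The label "without delta chain" describes the absence of a Trdc UMI. Of the 270 cells, 66 (24.4%) held a UMI of a gamma chain gene or a delta variable gene, against 272 of the 292 gamma delta T cells (93.2%). By library these were 14 cells in LNR, 9 in sham, 27 in SAR131675 and 16 in control diet. Conversely, 226 gamma delta T cells (77.4%) held a UMI of the alpha or beta constant regions, but only 28 (9.59%) of Trac. Variable segments of the alpha or beta chain were detected in 44 cells (16.3%) and in 21 gamma delta T cells (7.19%). The 44 cells spread over 31 segments, and the most frequent, Trbv13-2, was in 5 cells: 1 in sham, 2 in SAR131675 and 2 in control diet. No segment was in more than 3 cells of 1 library. These 3' libraries read few variable segments, so clones could not be traced.

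RNA of other cell types was present in some barcodes. At least 20 UMIs over Krt5, Krt14, Krt1 and Krt10 were held by 62 cells (23.0%), 60 gamma delta T cells (20.5%) and 110 CD3 cells without either chain (63.2%). All 8 keratinocyte markers were found in the cells of every library. CPM is the UMIs of a gene scaled to a fixed total of the UMIs summed over the same cell group of the library. The keratinocyte markers summed to 7322 CPM in LNR and 7527 in sham, and to 19435 in SAR131675 and 18955 in control diet. In gamma delta T cells the sum was 9173 CPM in LNR, 9897 in sham, 8306 in SAR131675 and 9927 in control diet. The 6 fibroblast markers were found in every library, with 588 CPM in SAR131675 against 1108 in control diet, and 1255 in LNR against 5486 in sham. Of the sham fibroblast UMIs, 49.4% came from 1 cell. The 4 hemoglobin genes had 8101 CPM in control diet against 59.8 in SAR131675, and 63.8 in LNR against 35.9 in sham, with 66.3% of the control diet UMIs in 1 cell. Macrophage markers had 1048 CPM in LNR against 359 in sham, and 165 in SAR131675 against 36.8 in control diet. Dendritic and Langerhans cell markers had 1610 CPM in LNR against 120 in sham, and 175 in SAR131675 against 394 in control diet. In LNR, 46.3% of the macrophage marker UMIs were in 1 cell and 40.2% of the dendritic and Langerhans cell marker UMIs in 1 cell. For macrophage markers 1 cell held 83.3% in sham, 98.2% in SAR131675 and 81.25% in control diet. For dendritic and Langerhans cell markers 1 cell held 16.7% in sham, 44.2% in SAR131675 and 70.8% in control diet. Neutrophil markers reached at most 122 CPM, in control diet and all in 1 cell, B cell markers 25.1 CPM and mast cell markers 42.3 CPM. Endothelial markers were at 0 in sham and at most 82.0 CPM elsewhere. Of the 8 genes of the natural killer and innate lymphoid list, Ncr1, Klra8 and Klra4 had 0 UMIs in all 270 cells, while Kit was found in 28, Il1rl1 in 27 and Klre1 in 18. The list summed to 82.0 to 143 CPM in these cells and to 19.5 to 34.2 CPM in gamma delta T cells. The part of other cells' RNA in the results that follow was not tested beyond the values given.

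**Figure D1:**
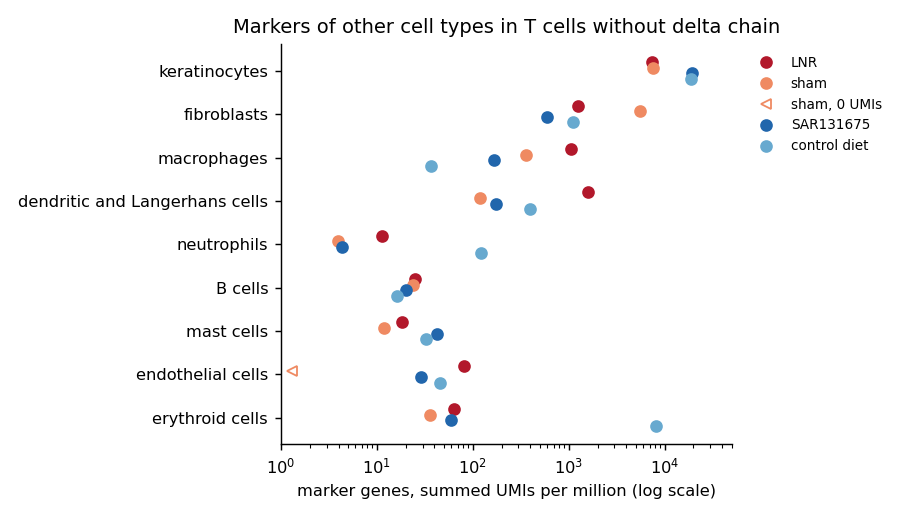
Summed UMIs of each marker list, in CPM, of the T cells without delta chain (x axis, log scale), 1 point per library, with an open triangle for 0 UMIs. Keratinocyte markers were high in all 4 libraries, hemoglobin genes stood at 8101 CPM in control diet against 59.8 CPM in SAR131675, and fibroblast markers at 5486 CPM in sham against 1255 CPM in LNR.

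The share of T cells without delta chain among kept cells was 0.429% in LNR (95% Clopper-Pearson interval 0.343% to 0.530%), 0.285% in sham (0.217% to 0.368%), 0.261% in SAR131675 (0.206% to 0.327%) and 0.208% in control diet (0.154% to 0.274%). All intervals given here cover counting error only, not the spread between animals or dissections. LNR over sham was a log2 ratio of 0.59 (0.09 to 1.09), and SAR131675 over control diet was 0.33 (-0.20 to 0.87). The share was thus higher on the treated side in both experiments, with an interval that included 0 for the diet. Gamma delta T cells gave 0.333% in LNR and 0.397% in sham, and 0.272% in SAR131675 and 0.270% in control diet. Their log2 ratios were -0.25 (-0.74 to 0.23) for LNR over sham and 0.01 (-0.49 to 0.50) for SAR131675 over control diet. Among cells with a Ptprc UMI, T cells without delta chain made up 4.05% in LNR and 3.22% in sham, and the interval of that log2 ratio, 0.33 (-0.24 to 0.91), included 0. With at least 2 CD3 UMIs required, the LNR over sham log2 ratio was 0.39 (-0.14 to 0.94).

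**Figure D2:**
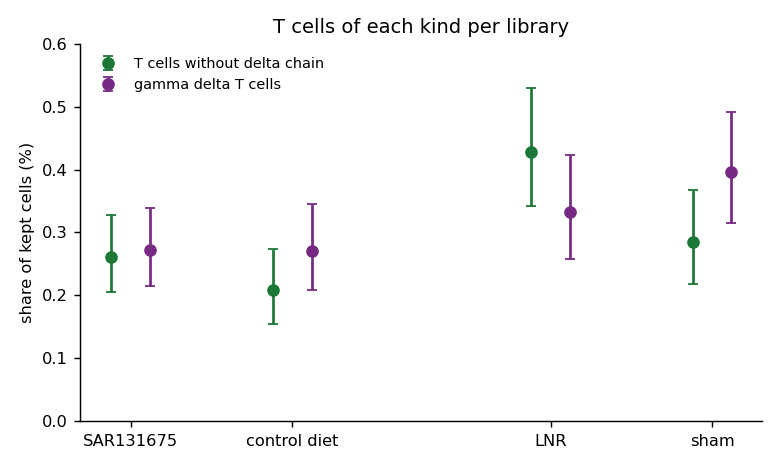
Share of kept cells (%, y axis) that were T cells without delta chain or gamma delta T cells in each library, with 95% Clopper-Pearson intervals. The T cells without delta chain stood at 0.429% in LNR and 0.285% in sham, and the intervals of the diet libraries overlapped widely.

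Genes were compared between these cells and gamma delta T cells by summing UMIs per library and cell group and fitting edgeR's quasi-likelihood test with the library as a block, so that each library gave 1 pair of sums. The 7 rule genes were kept out of the calls. Of 6504 genes tested, 91 were higher in T cells without delta chain (1.4%) and 169 were lower (2.6%) at a Benjamini-Hochberg adjusted p under 0.05. The counts were 36 and 85 without sham, 28 and 62 without SAR131675, 29 and 66 without control diet, and 12 and 22 with no block. Without cells of 20 or more keratin UMIs more genes were higher than lower, at 195 and 150. The median log2 fold change over all genes tested was -0.01. Among the called genes with the same direction in 4 of 4 libraries, Il1rl1, Cd8b1 and Lef1 had the largest higher fold changes, and Scart1, Trdv4 and Htra4 the largest lower ones.

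The coreceptor genes and Cd40lg had few UMIs in gamma delta T cells. Cd8b1, which encodes the CD8 beta chain, had 15 UMIs in LNR, 17 in sham, 18 in SAR131675 and 12 in control diet, against 0, 0, 0 and 1 in gamma delta T cells of the same libraries. It was 5.54 higher on the log2 scale (SE 0.64, adjusted p = 0.00260 from edgeR) and came from 28 cells. Cd8a and Cd4 were too low for the fit: Cd8a had 23 UMIs against 1, and Cd4 had 41 against 4. Cd40lg, the CD40 ligand of helper cells, had 17, 12, 56 and 14 UMIs in the same order against 3, 0, 3 and 2, a log2 fold change of 3.59 (SE 0.47, adjusted p = 0.00416, edgeR). Both genes were higher in 4 of 4 libraries, and the CPM of the 2 cell groups did not overlap. Without SAR131675 the adjusted p of Cd40lg was 0.0961 (edgeR). Zbtb7b, the transcription factor of the helper lineage and the third gene of the CD4 list, was found in 26 of the 270 cells (9.63%) and in 28 of the 292 gamma delta T cells (9.59%) and was too low for the fit.

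Of the T cell signaling and costimulation list, Cd28, Icos and Cd5 rose and Cd247 fell. Cd28, the main costimulatory receptor of naive T cells, had 28 UMIs in LNR, 25 in sham, 107 in SAR131675 and 59 in control diet, against 3, 3, 18 and 10 in gamma delta T cells. Its log2 fold change was 2.84 (SE 0.24, adjusted p = 0.00108, edgeR), and it was called under all 14 alternatives of the fit. It was found in 102 of 270 cells and in 18 of 292 gamma delta T cells. Icos was 1.95 higher and Cd5, a brake on receptor signaling, 3.28 higher on the log2 scale, both higher in 4 of 4 libraries. Without SAR131675 the adjusted p of Icos was 0.0699 (edgeR). Of the 16 genes of the T cell signaling and costimulation list, 14 were tested, 3 rose (Cd5, Cd28 and Icos) and 1 fell. Over all genes tested 1.4% were higher and 2.6% lower. The median of the list was 0.03, beside -0.01 over all genes. The gene that fell was Cd247, the zeta chain of the receptor complex, at 225 UMIs against 1189 and a log2 fold change of -2.14. Lat, Zap70, Lck, Cd2 and Thy1, which act in receptor signaling or mark T cells, lay between -0.82 and 0.68 on the log2 scale and did not pass the test.

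Of the naive and recirculating list, 4 of 9 genes tested rose and 0 fell, beside 1.4% higher and 2.6% lower over all genes tested. Lef1, a transcription factor of naive T cells, had 16 UMIs in LNR, 7 in sham, 149 in SAR131675 and 86 in control diet, against 1, 1, 7 and 4 in gamma delta T cells. Its log2 fold change was 4.33 (SE 0.29, adjusted p = 2.8e-04, edgeR). One SAR131675 cell held 72 of the 149 UMIs, and 1 control diet cell held 27 of the 86. Over all 4 libraries 52 cells held a Lef1 UMI, 19 of them in SAR131675 and 15 in control diet. Over all kept cells Lef1 stood at 49.3 CPM in SAR131675 and 25.6 CPM in control diet, and in keratinocytes at 20.3 and 13.4 CPM. The part of other cells' RNA was not tested. The 4 genes were Lef1, S1pr1, Satb1 and Ms4a4b, and the median of the list, of 11 genes in all, was 0.46. S1pr1 encodes the receptor that lets T cells leave tissue and lymph nodes. It was 1.58 higher on the log2 scale (adjusted p = 0.0352, edgeR) and lost the call under 6 of 13 alternatives, among them without sham (0.123), without SAR131675 (0.138) and without control diet (0.0788). Without sham, Satb1 and Ms4a4b had adjusted p values of 0.0570 and 0.0640 (edgeR). Tcf7 and Klf2, which also mark naive T cells, had log2 fold changes of -0.21 and 0.26 and did not pass. Ccr7, a homing receptor for lymph nodes, was too low for the fit, with 35 UMIs against 16.

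Among cytotoxic genes 1 rose and 6 fell, beside 1.4% higher and 2.6% lower over all genes tested. Ccl5, a chemokine of memory and cytotoxic T cells, had 346 UMIs in LNR, 232 in sham, 265 in SAR131675 and 121 in control diet, against 24, 3, 44 and 0 in gamma delta T cells. Its log2 fold change was 4.19 (SE 0.62, adjusted p = 0.00797, edgeR), from 58 cells against 7. Ly6c2, a surface antigen of memory CD8 T cells, was 4.25 higher, with 198 UMIs against 11. Its near-identical neighbor Ly6c1 could share reads with it. Xcl1, a chemokine that attracts cross-presenting dendritic cells, had 4 UMIs in LNR, 13 in sham, 24 in SAR131675 and 16 in control diet, against 208, 229, 241 and 95. Its log2 fold change was -3.59 (SE 0.41, adjusted p = 0.00237, edgeR). Prf1, the pore-forming protein of killer cells, was found in 9 cells against 89 gamma delta T cells, with 14 UMIs against 185 and a log2 fold change of -3.58. Nkg7, Klrd1, Klrk1 and Ctsw, which belong to the granule and receptor genes of killer cells, fell as well, with log2 fold changes of -1.57, -1.82, -1.38 and -1.73. The adjusted p of Nkg7 was 0.0944 without sham and 0.0712 without control diet, and that of Ctsw 0.0700 without sham (edgeR). Of the 18 genes of the type 1 and cytotoxic list 9 were tested, with a median of -1.57. Gzmc, granzyme C, was too low for the fit, with 5 UMIs against 230, and 85 of the latter were in 1 cell. Ifng, which encodes interferon gamma, had 72 UMIs in 15 cells against 11 UMIs in 3 cells and was not tested either.

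The gamma delta receptor genes were lower in all 4 libraries, which the choice of cells by Trdc largely fixes. Trdv4 is spliced to Trdc in the same transcript and had 19 UMIs against 883. Trgc1, the constant region of a gamma chain, had 7, 1, 20 and 5 UMIs in LNR, sham, SAR131675 and control diet, against 139, 136, 313 and 225. Its log2 fold change was -4.62. All 5 genes of the gamma delta list that could be tested fell, with a median of -2.57, and Trgc2, Trgc4 and Trgv2 lay between -2.57 and -2.13. Near-identical gamma constant and variable segments can share reads. Outside the receptor genes, Scart1, a scavenger receptor of gamma delta T cells, had 2, 0, 9 and 0 UMIs against 12, 41, 296 and 244 (log2 fold change -5.58, SE 0.53, adjusted p = 0.00129, edgeR). Il23r, the receptor for the type 17 cytokine interleukin 23, had 2, 0, 54 and 22 UMIs against 3, 8, 231 and 212 (log2 fold change -2.46), so that most of its UMIs came from the diet libraries. Il17a had 2 UMIs against 77 and was not tested. Blk, a kinase of type 17 gamma delta T cells, had 14 UMIs against 279 and was not tested.

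The other genes that fell furthest were Htra4, Nrgn, Adora3, Avil, Col27a1, Gm48236 and Adamtsl3. Nrgn, which encodes the calmodulin-binding protein neurogranin, was found in 5 cells against 66 gamma delta T cells. The adjusted p of Adora3 was 0.0855 without SAR131675 and that of Col27a1 0.0516 without control diet (edgeR). Adamtsl3, of a family of extracellular matrix proteins, was found in 6 against 70. Htra4, a secreted protease, had 459 UMIs in only 13 gamma delta T cells, and up to 126 of them lay in 1 cell. Its level was 4.08 to 39.1 CPM in keratinocytes and 76.3 to 168 CPM over all kept cells. In T cells without delta chain it had 14 UMIs in LNR, with 10 in 1 cell, and 0 in sham, SAR131675 and control diet. Which cells this RNA came from was not tested. The remaining higher genes named by the rule were Nsg2, Ifi27l2a, an interferon-induced gene, Gimap6, a GTPase of lymphocyte survival, and Ms4a6b and Ms4a4b, membrane proteins of T cells, with log2 fold changes between 3.37 and 4.27 and higher CPM in 4 of 4 libraries. Ms4a4b was found in 95 of the 270 cells and in 10 of the 292 gamma delta T cells. Adding to these, 26 of 81 ribosomal protein genes tested rose and none fell, beside 1.4% higher and 2.6% lower over all genes tested. The ribosomal protein genes were picked as a set after their values were seen. Their median log2 fold change was 0.41.

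**Figure D3:**
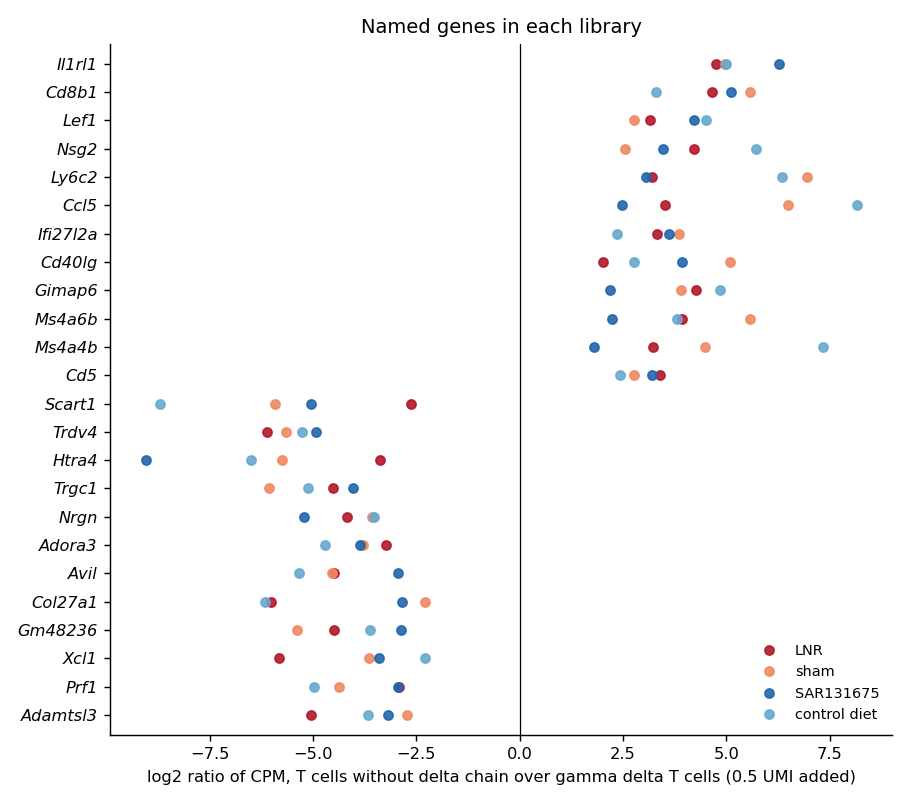
Log2 ratio of CPM, T cells without delta chain over gamma delta T cells (x axis, 0.5 UMI added to each sum), for the 24 named genes (y axis), with 1 point per library. All points of the 12 higher genes lie right of 0 and all points of the 12 lower genes left of 0, which the naming rule required, and the libraries differ in size of the ratio, as for Ccl5, where control diet gamma delta T cells held 0 UMIs.

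Of the 12 tissue residence genes 9 were tested and 2 fell, beside 2.6% lower over all genes, and 7 had an unadjusted p under 0.05, beside 1074 of the 6504. The 2 that fell were Rgs1, a regulator of G protein signaling (log2 fold change -2.07), and Ahr, the aryl hydrocarbon receptor (-1.15). Itgae, the integrin that binds epithelium, had a log2 fold change of -0.66, Cd69, an early activation and retention marker, -0.12, and Cxcr6, a chemokine receptor of resident T cells, -0.55, and none of these passed the test. The list median was -0.55, with 1 of the 9 genes positive, and Ahr lost its call under 8 of 13 alternatives, among them without sham (0.133), without SAR131675 (0.0779) and without control diet (0.189). Of the type 17 list 7 were tested and Il23r fell, with a median of -0.58. Of the activation and checkpoint list 9 were tested, with Icos and Cd40lg up and Tnfrsf9 down, beside 1.4% higher and 2.6% lower over all genes. Cxcr4, a homing receptor, was the only one called of 5 chemokine receptors tested, with a log2 fold change of 1.46 and an adjusted p of 0.0154 that became 0.133 without SAR131675 (edgeR). Of the 9 cell cycle genes 8 were tested, and 0 passed by edgeR or DESeq2, with 2 at an unadjusted p under 0.05. Mki67, a marker of dividing cells, was found in 38 of 270 cells (14.1%) and 46 of 292 gamma delta T cells (15.8%). Genes of dissociation and stress (10 tested) and keratinocyte markers (8 tested) had 0 calls by edgeR and DESeq2, with 2 and 1 at an unadjusted p under 0.05 and medians of -0.36 and 0.32. Fibroblast markers (6 tested) had 0 calls by either tool, 1 such p and a median of -0.80. However, Krt17, Spink5, Sprr1b and Calml3, which keratinocytes express, were among the 91 higher genes, named here after their values were seen. Lyz2, which macrophages express, was called at 324 UMIs against 52, yet these lay in 9 cells, with 107 UMIs in 1 SAR131675 cell and 99 in 1 LNR cell. Its adjusted p was 0.0855 without sham and 0.0514 without control diet (edgeR).

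Some genes that mark regulatory T cells, Foxp3, Il1rl1 and Tnfrsf4, had 0 or 1 UMI in gamma delta T cells, whereas others were common there: Ikzf2 was found in 137 of the 292, Tnfrsf9 in 93, Il2ra in 85 and Tnfrsf18 in 61. The sum of the list was higher in T cells without delta chain in LNR and sham (947 and 897 CPM against 535 and 755) and lower in SAR131675 and control diet (868 and 850 CPM against 1074 and 1089). Without cells of 20 or more keratin UMIs it was higher in all 4 libraries, at 1487 against 872 CPM in LNR, 1278 against 1215 in sham, 1456 against 1330 in SAR131675 and 1585 against 1441 in control diet, so the direction in the diet libraries turned. Il1rl1, which is also on the natural killer and innate lymphoid list, encodes ST2, the receptor for interleukin 33, which tissue regulatory T cells carry. It had 16 UMIs in LNR, 11 in sham, 41 in SAR131675 and 13 in control diet and 0 in all 4 sums of gamma delta T cells (adjusted p = 0.00644, edgeR, and 0.0699 without SAR131675). The 81 UMIs lay in 27 cells, whose kind was not tested, and 15 of the 81 in 1 SAR131675 cell. Against 3 UMIs over all gamma delta T cells it was at least 27.7-fold higher. Foxp3 had 20, 2, 9 and 12 UMIs in the same order and 0 in gamma delta T cells, which put it at least 14.7-fold higher against 3 UMIs, and it was too low for the fit. Tnfrsf4, the costimulatory receptor OX40, had 105 UMIs against 1. Ctla4, the inhibitory receptor that binds CD28 ligands, had 38, 20, 72 and 34 UMIs against 0, 0, 12 and 13 (log2 fold change 2.90, SE 0.54, adjusted p = 0.0230, edgeR). Ctla4 also had a UMI in 23.5% and 31.9% of keratinocytes of the diet libraries but in 0.0581% and 0.0683% of those of the surgical libraries, and after thinning in 2.96% and 4.72% of the former, so its diet values cannot be read as T cell RNA alone. Of the 15 genes of the regulatory T cell list 6 were tested. Ctla4 and Tnfrsf18, which encodes GITR, rose, and Tnfrsf9, which encodes 4-1BB, fell, with a list median of 0.10. For this list and the 2 lists below, 1.4% were higher and 2.6% lower over all genes tested. Tnfrsf18 lost its call under 8 of 13 alternatives, Tnfrsf9 under 7 and Ctla4 under 4. These include leaving out sham or SAR131675 for all 3 genes and control diet for Tnfrsf18 and Tnfrsf9. The list of the tissue repair program held 8 genes, 6 of which were tested. Il1rl1 and Gata3, a transcription factor of type 2 immunity, rose, with a median of 0.84. Gata3 lost its call under 3 of 13 alternatives, with adjusted p values of 0.0846 with no block, 0.0531 with no upper limits on genes and UMIs and 0.145 with a Trac UMI (edgeR). These 2 genes were also the calls of the type 2 list, of 3 tested. 

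The cells were then split by the coreceptor UMIs that they held. A Cd4 UMI with no Cd8a or Cd8b1 UMI was found in 26 of the 270 cells (9.63%, 95% interval 6.39% to 13.8%), and a Cd8a or Cd8b1 UMI with no Cd4 UMI in 30 (11.1%, 7.62% to 15.5%). Both were found in 1 cell and neither in 213 (78.9%, 73.5% to 83.6%). Foxp3 was found in 20 cells (7.41%, 4.58% to 11.2%), of which 5 also held a Cd4 UMI. In gamma delta T cells these shares were 1.37% for Cd4, 0.685% for Cd8 and 0 of 292 cells for Foxp3, which allows a share of cells with a UMI of up to 1.03% (3 counts) and does not limit the share that expresses the gene. In keratinocytes Cd4 had a UMI in 0.0194% to 0.0683% of cells, Cd8a or Cd8b1 in 0.0165% to 0.0342%, and Foxp3 in 0.0114% to 0.0596%. The cells were also thinned to 1500 UMIs, and the rule was applied to the thinned counts. This left out 20 of the 270 cells for depth and many others because the rule no longer held. It could also bring in gamma delta T cells whose Trdc UMIs were lost. The thinned set held 156 cells, with 10 Cd4 cells, 12 Cd8 cells and 12 Foxp3 cells. The coreceptor genes are read sparsely, so the 213 cells without a coreceptor UMI are not cells shown to lack the protein.

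The shares of Cd4 and Cd8 cells had overlapping intervals across libraries. Cd4 cells numbered 7 of 85 in LNR, 5 of 59 in sham, 8 of 76 in SAR131675 and 6 of 50 in control diet. Cd8 cells numbered 8, 10, 7 and 5 in the same order. Foxp3 cells numbered 10 of 85 in LNR (11.8%, 5.79% to 20.6%), 2 of 59 in sham (3.39%, 0.413% to 11.7%), 4 of 76 in SAR131675 (5.26%, 1.45% to 12.9%) and 4 of 50 in control diet (8.00%, 2.22% to 19.2%). Foxp3 was thus more frequent in LNR than in sham and less frequent in SAR131675 than in control diet, with overlapping intervals in both experiments. After thinning these were 6 of 54 cells in LNR, 1 of 34 in sham, 3 of 38 in SAR131675 and 2 of 30 in control diet, so that the order in the diet experiment turned.

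The 20 Foxp3 cells, chosen by 1 gene and given as a description, carried some of the other genes of the regulatory list. Ctla4 was found in 17 of them, Ikzf2, the transcription factor Helios, in 17, Tnfrsf4 in 17, Il2ra, the interleukin 2 receptor alpha chain, in 15 and Icos in 15. Of the same list, Lrrc32 was found in 2 of the 20, Ikzf4, Il10 and Izumo1r in 1 each, and Tigit, Gpr83 and Ccr8 in 0, which allows a share with a UMI of up to 15%. Genes of the repair program followed, with Il1rl1 in 12, Areg, which encodes the growth factor amphiregulin, in 11 and Klrg1 in 11. Gzmb, granzyme B, was found in 9. None of the 20 held a UMI of a gamma chain or delta variable gene, 15 held Trac, and 1 had 20 or more keratin UMIs. Cd40lg was found in 1 of them and Ccl5 in 1. Ctla4 cells spread over the libraries as 7 in LNR, 2 in sham, 4 in SAR131675 and 4 in control diet.

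In the 30 Cd8 cells some genes of the cytotoxic list were frequent and others were near 0. Ms4a4b, of the naive and recirculating list, was found in 21 of them, Nkg7 in 18, Ccl5 in 15 and Ly6c2 in 15, Themis, a signaling protein of alpha beta T cells, in 13, Klrd1 in 12 and Ccr7 in 10. Eomes was found in 3, Prf1, which encodes perforin, in 2, the granzyme genes Gzma and Gzmb in 1 each and Gzmk in 0, which allows a share with a UMI of up to 10%. Ccl5 had 280 UMIs in these cells, or 2406 CPM, against 298 CPM in the Cd4 cells and 415 CPM in cells with neither coreceptor. The 26 Cd4 cells held Cd28 in 18, Ms4a4b in 18, Icos in 13, Cd5 in 13 and Cd40lg in 11. Klrd1 was found in 0 of the 26, which allows a share with a UMI of up to 11.5%, and Ly6c2 in 1. Trac was found in 76.9% of the Cd4 cells and 76.7% of the Cd8 cells.

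The 213 cells with neither coreceptor were more mixed. Trac was found in 88 of them (41.3%), a gamma chain or delta variable gene in 62 (29.1%), and 56 (26.3%) had 20 or more keratin UMIs. A gamma or delta gene was found in 7.69% of the Cd4 cells and 3.33% of the Cd8 cells. Rora, a transcription factor of innate-like and tissue T cells, was found in 159 of the 213 cells, Gata3 in 114, Tmem176b, a membrane protein of type 17 cells, in 72, Cxcr6 in 68, Ccr6, a chemokine receptor of skin and type 17 T cells, in 55 and Zbtb16, the transcription factor of innate-like T cells, in 36. Zbtb16 was found in 19 cells of SAR131675 and 13 of control diet, and in 2 of LNR and 2 of sham. Depth and software version both differed between the 2 experiments, and their part was not tested. Il23r was found in 18. Of the 292 gamma delta T cells, Rora was found in 158, Gata3 in 95, Tmem176b in 145, Cxcr6 in 102, Ccr6 in 53, Zbtb16 in 65 and Il23r in 76. Rora and Gata3 belong to the repair program list, which keratinocytes held at 418 to 1138 CPM. The part of keratinocyte RNA was not tested. The cells with neither coreceptor were also deeper (median 5234 UMIs) than the Cd4 cells (3360) and the Cd8 cells (3260). Zbtb16 was found in 1 of the 26 Cd4 cells and 0 of the 30 Cd8 cells, which allows a share with a UMI of up to 10%. The split used coreceptor UMIs only, and no test was run between the groups.

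**Figure D4:**
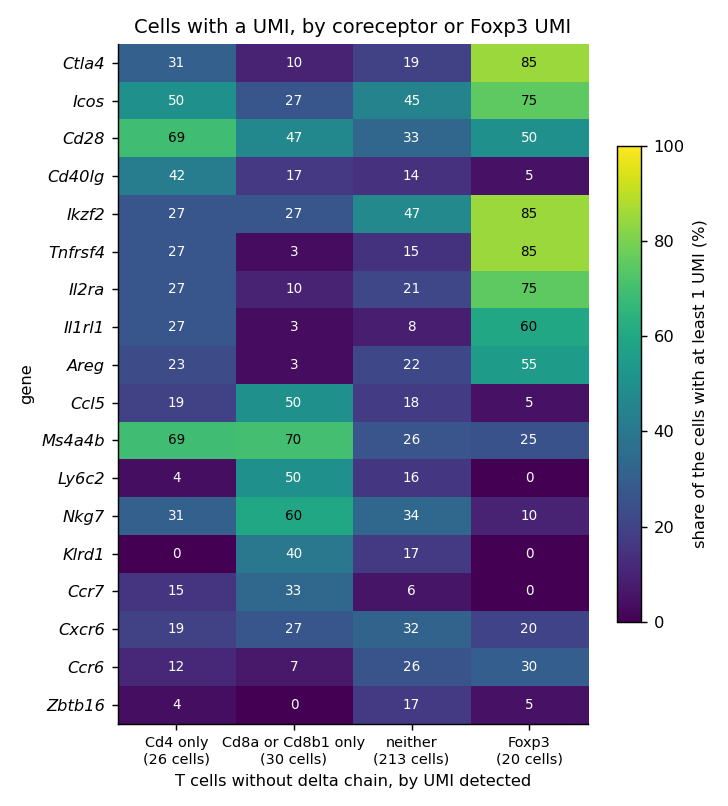
Share of cells with at least 1 UMI (%, color and number) of 18 genes (y axis) in T cells without delta chain grouped by a UMI of Cd4 only, of Cd8a or Cd8b1 only, of neither, or of Foxp3 (x axis, with cell numbers); the Foxp3 cells are also counted in 1 of the other groups. Ctla4, Ikzf2 and Tnfrsf4 reach 85.0% in the Foxp3 cells, Ms4a4b 21 of the 30 Cd8 cells, and Cd28 69.2% in the Cd4 cells.

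Tnfsf11 was followed because it encodes RANKL. T cells without delta chain held 5 Tnfsf11 UMIs in LNR, 11 in sham, 50 in SAR131675 and 20 in control diet, in 3, 3, 20 and 8 cells. This gave 11.4 CPM (95% Poisson interval 3.70 to 26.6) in LNR and 43.9 CPM (21.9 to 78.5) in sham, and 73.0 CPM (54.2 to 96.2) in SAR131675 and 46.1 CPM (28.1 to 71.1) in control diet. SAR131675 over control diet was 0.66 on the log2 scale (-0.11 to 1.49), and LNR over sham was -1.95 (-3.82 to -0.30). The interval of the latter included 0 with no upper limits on genes and UMIs (-3.34 to 0.18), with at least 2 CD3 UMIs (-3.33 to 0.19) and without cells of 20 or more keratin UMIs (-3.55 to 0.03). The level was thus higher with SAR131675, with an interval that included 0 here and did not with no upper limits (0.91, 0.19 to 1.68), and lower with LNR on 16 UMIs in 6 cells. In sham, 1 cell held 7 of the 11 UMIs. As a share of cells, Tnfsf11 was found in 26.3% in SAR131675 (16.9% to 37.7%) and 16.0% in control diet (7.17% to 29.1%), and in 3.53% in LNR (0.734% to 9.97%) and 5.08% in sham (1.06% to 14.1%). Among cells that met the rule after thinning to 1500 UMIs, the gene was found in 5 of 38 in SAR131675 and 6 of 30 in control diet. It was found in 2 of 54 in LNR and 1 of 34 in sham. These rest on 9, 6, 3 and 1 UMIs in that order. Gamma delta T cells that lost their Trdc UMIs may be among these cells. A thinned level at or near 1 UMI shows no difference. Keratinocytes had a Tnfsf11 UMI in 0.113% to 0.426% of cells.

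Tnfsf11 in gamma delta T cells was 25.2 CPM in LNR, 52.7 CPM in sham, 109 CPM in SAR131675 and 156 CPM in control diet, so that T cells without delta chain were lower in 4 of 4 libraries. The edgeR log2 fold change was -0.88 (SE 0.28) and missed the threshold at an adjusted p = 0.148. It ranged from -1.10 to -0.11 over the alternatives and passed the threshold in 1 of them, with no filter on low counts (adjusted p = 0.0266, edgeR). In SAR131675 the direction turned, with a log2 ratio to gamma delta T cells of 0.14 with at least 2 CD3 UMIs and 0.34 with a Trac UMI. Within gamma delta T cells, SAR131675 over control diet was -0.52, with an interval whose upper bound was -0.04, and LNR over sham was -1.06 (-2.40 to 0.17). The 34 T cells without delta chain that held Tnfsf11 carried Trac in 25, Cd40lg in 15, Cd4 in 5 and Foxp3 in 2. A gamma chain or delta variable gene was found in 13 of the 34. Of the cytokines that act on osteoclasts 4 could be tested against gamma delta T cells, and 0 passed by edgeR or DESeq2, with 3 at an unadjusted p under 0.05. Tnf and Tgfb1, which act on osteoclast precursors, had log2 fold changes of -0.77 and 0.02.

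**Figure D5:**
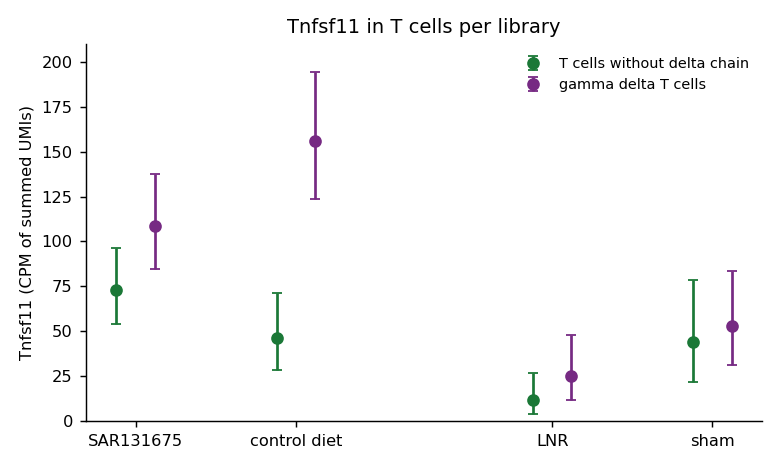
Tnfsf11 level (CPM of summed UMIs, y axis) in T cells without delta chain and gamma delta T cells of each library, with 95% exact Poisson intervals that cover counting error only. T cells without delta chain stood at 73.0 CPM in SAR131675 and 46.1 CPM in control diet, with sham at 43.9 CPM above LNR at 11.4 CPM.

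Between conditions, gene levels in T cells without delta chain were compared as ratios of summed CPM for genes with at least 50 UMIs over both libraries, without a test. In the diet experiment 4422 genes qualified, of which 109 were at least 2-fold higher (2.46%) and 103 at least 2-fold lower (2.33%) with SAR131675. In the surgical experiment 1824 qualified, of which 95 were at least 2-fold higher (5.21%) and 47 at least 2-fold lower (2.58%) with LNR. This excess of higher genes depended on how the cells were chosen. It was not kept without keratin cells (34 higher and 38 lower) or with at least 2 CD3 UMIs (38 and 37). Nor was it kept with a Trac UMI (18 and 25) or after thinning to 1500 UMIs (1 and 10). It was kept with no upper limits on genes and UMIs (150 and 80) and at a mitochondrial share of at most 5% (97 and 45). Without gamma or delta genes it was kept as well (97 and 52). With no upper limits on genes and UMIs 157 were higher and 320 lower with SAR131675. Of 1716 genes that qualified in both experiments, 875 had the same sign. Only 4 were 2-fold higher in both and 4 were 2-fold lower in both, and 8 were 2-fold apart in opposite directions.

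The genes named because they moved the same way in both experiments included genes that other cells express. The part of those cells' RNA was not tested. Col1a1 and Col1a2, collagens of fibroblasts, had log2 ratios of -2.98 and -1.86 with SAR131675 and -3.72 and -2.54 with LNR. Both are among the 6 fibroblast markers and make up part of that sum. One sham cell held 299 of the 370 Col1a1 UMIs. Sparc, Igfbp4 and Igfbp7, which fibroblasts also express, had log2 ratios between -2.19 and -0.71. Igfbp4 also belongs to the naive and recirculating list, of which 9 genes qualified in the diet and 6 in the surgical experiment, with medians of -0.15 and -0.11. Igfbp4 was its only gene 2-fold lower, in both experiments, and Klf2 its only gene 2-fold higher, with LNR, at 66 UMIs against 17 in sham (log2 ratio 1.15, 0.36 to 2.01). One LNR cell held 22 of the 66, and endothelial markers, whose cells also express Klf2, stood at 82.0 CPM in LNR and 0 in sham. Their part was not tested. Lyz2 had 107 UMIs with SAR131675, all in 1 cell, and 193 with LNR in 4 cells. Idi1, an enzyme of cholesterol synthesis, had a log2 ratio of 1.46 with SAR131675 and 4.06 with LNR, but 203 of the 262 LNR UMIs lay in 1 cell. Without cells of 20 or more keratin UMIs the Idi1 ratio with LNR was 0.47. Fgl2, a secreted product of regulatory and memory T cells, had 89 UMIs with SAR131675 and 26 with control diet, a log2 ratio of 1.12 (0.47 to 1.81). It had 50 UMIs with LNR and 9 with sham, a ratio of 1.67 (0.63 to 2.88), and was found in 25, 17, 14 and 8 cells. One SAR131675 cell held 28 of the 89 UMIs and 1 LNR cell 16 of the 50. Against gamma delta T cells Fgl2 was lower in 4 of 4 libraries, with a log2 fold change of -1.01. Ddt and Mrpl21 had log2 ratios of 0.85 to 1.20.

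T cell genes stood on both sides of the diet comparison, and those given here were picked from the lists after their values were seen. Of the T cell signaling list, 14 genes qualified, with Themis, Cd5 and Icos at least 2-fold higher and Prkcq at least 2-fold lower. Over all genes that qualified 2.46% were at least 2-fold higher and 2.33% at least 2-fold lower. Prkcq, a kinase of receptor signaling, had 55 UMIs with SAR131675 and 84 with control diet, a log2 ratio of -1.27 (-1.79 to -0.76). Icos had 225 UMIs in 44 cells with SAR131675 and 67 in 24 cells with control diet, a log2 ratio of 1.09 (0.69 to 1.51). Cd40lg had 56 UMIs in 19 cells and 14 in 6 cells, a ratio of 1.34 (0.48 to 2.30). Cd5 had 44 in 15 cells and 11 in 7 cells, a ratio of 1.34 (0.37 to 2.44). Il13, a type 2 cytokine below the 50 UMI minimum, had 36 and 6 UMIs, a ratio of 1.93 (0.67 to 3.46), with 17 of the 36 in 1 cell. Without cells of 20 or more keratin UMIs these ratios were 0.97 for Icos, 0.93 for Cd40lg, 1.37 for Cd5 and 0.86 for Il13. All 9 tissue residence genes with enough UMIs had a positive ratio, with Crem and Ahr past 2-fold and a median of 0.53, beside 0.02 over all genes. In the same comparison 4 of the 8 keratinocyte markers, Krt5, Krt14, Krt1 and Krt15, were at least 2-fold higher, with a median of 0.66, and keratinocytes held the tissue residence list at 542 CPM in SAR131675 and 522 CPM in control diet. The list summed to 2113 and 1518 CPM in T cells without delta chain, and to 3211 and 2570 CPM without cells of 20 or more keratin UMIs. The part of keratinocyte RNA was not tested. Ifng had 24 UMIs with SAR131675 and 36 with control diet, a ratio of -1.24 (-2.05 to -0.46), but 21 and 19 of these lay in 1 cell each. In the surgical experiment Icos had 47 and 48 UMIs in LNR and sham, a ratio of -0.84 (-1.45 to -0.23) that became 0.15 without the cells of 20 or more keratin UMIs. Areg had 78 and 23, a ratio of 0.95 (0.27 to 1.69). Tnfrsf4 had 60 UMIs with LNR and 17 with sham, a ratio of 1.01 (0.22 to 1.88), in 18 and 7 cells. Below the 50 UMI minimum, Foxp3 had 20 and 2, a ratio of 2.51 (0.47 to 5.66), in 10 and 2 cells, and Tnfrsf9 had 30 and 5, a ratio of 1.78 (0.40 to 3.50). Their lists moved little. Of the regulatory list 5 genes qualified, 3 with a positive ratio and 0 past 2-fold with 0.5 UMI added, with a median of 0.10. That list summed to 947 CPM in LNR and 897 in sham, and the repair program list to 720 and 738 CPM. Il1rl1 was at 36.4 CPM in LNR and 43.9 in sham. Of the tissue residence genes 2 of 5 had a positive ratio there, with a median of -0.20. The intervals treat UMIs as independent and are too narrow where 1 cell holds many.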

How the data were processed

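Single-cell RNA was measured in 4 libraries. Per the labels, the authors deposited UMI counts per gene and barcode, aligned and counted with Cell Ranger 6.1.2 on GRCm39; the file headers give Cell Ranger 6.1.2 for LNR and sham and 8.0.1 for SAR131675 and control diet. The deposited counts are raw, cover 33696 genes and hold no barcode under 500 UMIs. No coordinates are given. The authors' normalization and clustering were not repeated. Barcodes were kept by the cell filters that the study gives for its LNR data, applied here to all 4 libraries.

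The cells and gene lists were chosen with earlier results of these data known. Raw UMIs were summed per library and cell group and tested with edgeR 4.0.16 (R 4.3.3, TMM, filterByExpr, quasi-likelihood, library as a block, Benjamini-Hochberg), a script tested on simulated data. Library sums of 1 library come from the same pooled mice, which is where the pairing comes from. DESeq2 1.42.0 and other settings were alternatives. The p-values measure the spread between 4 libraries of 2 experiments. The fit took the 4 libraries as independent blocks, although by the paper's account LNR and sham are limbs of the same mice. Shares have exact Clopper-Pearson intervals, summed UMIs exact Poisson intervals and ratios exact conditional intervals at 95%, computed with Python 3.11.15 and scipy 1.17.1. Ratios between conditions for counting 2-fold genes had 0.5 UMI added. A 0 is read against 3 counts. No doublet caller was run, and cells with 20 or more keratin UMIs were left out in an alternative. Of 29 gene lists, 12 symbols were not found in the files, all but 2 of them alternative names of gamma chain genes. Named genes are the 12 called genes with the largest fold change in each direction with the same direction in 4 libraries, 5 genes in each direction that moved the same way in both experiments, and genes of the lists. A planned fit of Foxp3 cells against the others needed 5 Foxp3 cells per library, which only 1 library had, and was not run. Some list genes are not reported here.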

Additional observations from a re-analysis of the deposited data

Results flagged for a closer look

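In 2 places the T cells without delta chain and the gamma delta T cells of the same libraries moved in opposite directions between conditions. Neither difference was tested, since each condition is 1 library. The share of kept cells was higher in LNR than in sham for T cells without delta chain (log2 ratio 0.59) and lower for gamma delta T cells (-0.25), a difference of 0.84 between the log2 ratios. Both cell groups share the kept cells as denominator. Tnfsf11 was higher with SAR131675 than with control diet in T cells without delta chain (log2 ratio of CPM 0.66) and lower in gamma delta T cells (-0.52), a difference of 1.18. The interval of the first ratio included 0. With no upper limits on genes and UMIs the ratios were 0.91 (0.19 to 1.68) and 0.07 (-0.38 to 0.52), both above 0.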

How the results depend on the processing

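The block of the fit is the library, in which both cell groups come from the same pooled mice. With no replicate block, 12 genes were higher and 22 lower in T cells without delta chain, against 91 and 169, and all 34 were among the 260 genes called with the block. Leaving out 1 library in turn gave 28 to 112 higher and 62 to 146 lower genes: 36 and 85 without sham, 28 and 62 without SAR131675, and 29 and 66 without control diet. DESeq2 called 58 higher genes, and 173 of its calls were shared with edgeR. No filter on low counts gave 449 higher and 486 lower of 18584 tested. Without cells of 20 or more keratin UMIs 195 genes were higher, with at least 2 CD3 UMIs 111 were lower, after thinning 83 were lower, and with a Trac UMI, an alternative chosen after seeing the data like that without gamma or delta genes, 137 were higher. These changes alter the cells or genes tested, and the cause was not tested further. The percentage of calls that were higher moved from 35 to 53.4 with 2 CD3 UMIs, 56.5 without keratin cells, 57.2 after thinning, 53.9 with Trac and 48.0 with no filter. Of the 24 named genes, 0 reversed in any of 14 alternatives in which they could be tested, and 7 lost the threshold with no block, 3 without SAR131675 and 1 each without sham, without control diet and with no upper limits on genes and UMIs (Htra4, log2 fold change -1.49). The naming rule required large calls with 1 direction in 4 libraries, so reversals were unlikely from the outset. Only 6 of the 24 could be tested after thinning and 17 without keratin cells.

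Among cells with a Trac UMI, 15.2% were Cd4 cells, 17.4% Cd8 cells, 66.7% neither and 11.4% Foxp3 cells. After thinning 85.9% were neither. The share with both coreceptors was 0 without keratin cells, after thinning and without gamma or delta genes. The Tnfsf11 ratio of LNR over sham was 0.92 after thinning, on 3 UMIs and 1 UMI. Its ratio to gamma delta T cells in SAR131675 was 0.14 with at least 2 CD3 UMIs and 0.34 with a Trac UMI. Genes 2-fold higher and lower with SAR131675 numbered 351 and 325 at a minimum of 20 UMIs, 43 and 39 at 100, and 69 and 56 without keratin cells. With LNR they numbered 283 and 232 at 20 UMIs and 38 and 18 at 100. There were 38 higher and 37 lower with 2 CD3 UMIs, 34 and 38 without keratin cells, 18 and 25 with Trac, and 1 and 10 after thinning. The excess of higher genes with LNR was kept with no upper limits (150 and 80) and at a mitochondrial share of at most 5% (97 and 45). It was also kept without gamma or delta genes (97 and 52). With no upper limits 157 were higher and 320 lower with SAR131675. Such counts scale with the genes that qualify.

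With 1 library per condition, differences between conditions have no replicate error. The cells were few, about 50 to 85 per library, and Cd4 had 41 UMIs over all 270 of them. The 213 cells with neither coreceptor had a median of 5234 UMIs, against 3360 in Cd4 and 3260 in Cd8 cells, and 41.3% held Trac. Trbc2 was also found in keratinocytes, and 75 cells entered through it alone. The fit of Foxp3 cells against the others was not run, since only 1 library held 5 of them.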
